A study of Mus musculus with 24 samples.

Results

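Genes of the major histocompatibility complex (MHC) class I pathway were followed across the ventral prostate of 6 inbred mouse strains: the heavy chain genes H2-K1, H2-D1, H2-Q10, H2-Q7 and H2-T23, the light chain gene B2m, the peptide transporter genes Tap1 and Tap2, and the immunoproteasome genes Psmb8 and Psmb9. They were chosen by name, as every probe set that the array's annotation gives to them. Of these 10 genes, 8 are among the 12393 that have a probe set with a single gene symbol on the array. They have 29 probe sets, of which 23 carry a single symbol and 6 are shared with other genes. H2-Q7 and H2-T23 have shared probe sets alone, so no value below can be assigned to either gene on its own.

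The groups were wild-type, untreated mice of the AKR, SWR, FVB, 129X1, C57BL/6 and BALB/c strains, 8 weeks old and on a standard diet, with 4 biological replicates each and 24 Affymetrix MOE430A arrays in all. The labels do not say how many animals gave each RNA sample, so p-values measure the spread between these samples. Inbred strains carry a fixed set of alleles at the MHC, called the H2 haplotype, which is k in AKR, q in SWR and FVB, b in 129X1 and C57BL/6, and d in BALB/c. These letters are common knowledge of the strains and were not typed here, and strains that share a letter can still differ in the Q and T regions of the complex and elsewhere in the genome. Haplotypes k and d were each seen in 1 strain, so there haplotype and strain cannot be told apart. All values are log2 of the rescaled intensity plus 16, given as mean ± SD with n = 4 arrays per strain unless said otherwise, and folds are taken on that scale, which understates differences of dim probe sets. An array gives no read depth, so precision here rests on the 4 arrays of each strain.

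MHC class I molecules show peptides from inside the cell to CD8+ T cells. The immunoproteasome, of which Psmb8 and Psmb9 encode catalytic subunits, cuts proteins into peptides, the transporter formed by TAP1 and TAP2 moves them into the endoplasmic reticulum, and there they join a heavy chain and the light chain beta-2-microglobulin, encoded by B2m. H2-K1 and H2-D1 encode the classical, highly polymorphic heavy chains. H2-Q7 and H2-T23 encode non-classical ones, of which the H2-T23 product Qa-1 presents leader peptides of other class I chains, and H2-Q10 encodes a secreted heavy chain best known from liver. Interferons raise the transcription of most of these genes. All but B2m lie in the MHC on chromosome 17, and B2m lies on chromosome 2.

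The upstream sequences of the heavy chain genes are shown because the 3 genes below with a probe set of their own did not share a strain order. They come from RefSeq for the C57BL/6J reference, build GRCm38.p6, so they show the b haplotype and none of the other 5 strains' alleles. A window of 300 bases, from 250 before to 50 after the gene start, was at hand for 9 of the 10 genes, all but Tap2. Capitals mark GGGATTCCC, a kappaB-type motif, and TTTCACTTC, an interferon-response-type motif, both searched on both strands and not overlapping each other. The 130 bases below lie at chr17:34000353-34000482 on the minus strand for H2-K1, and on the plus strand at chr17:35262899-35263028 for H2-D1, chr17:35438997-35439126 for H2-Q7 and chr17:35469889-35470018 for H2-Q10.
H2-K1: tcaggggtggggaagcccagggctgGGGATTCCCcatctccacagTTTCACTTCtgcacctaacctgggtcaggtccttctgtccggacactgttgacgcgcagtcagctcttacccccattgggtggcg
H2-D1: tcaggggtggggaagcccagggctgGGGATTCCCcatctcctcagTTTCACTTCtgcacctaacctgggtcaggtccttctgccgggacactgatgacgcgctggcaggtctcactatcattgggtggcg
H2-Q7: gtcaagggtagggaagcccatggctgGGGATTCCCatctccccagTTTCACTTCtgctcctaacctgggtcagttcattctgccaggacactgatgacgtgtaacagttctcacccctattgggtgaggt
H2-Q10: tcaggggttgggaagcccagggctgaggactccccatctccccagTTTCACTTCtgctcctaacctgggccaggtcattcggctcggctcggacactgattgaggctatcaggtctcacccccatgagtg
The H2-K1 and H2-D1 stretches were 91.5% identical, H2-K1 and H2-Q7 83.3%, and H2-Q10 was 81.6%, 80.9% and 78.8% identical to H2-K1, H2-D1 and H2-Q7. GGGATTCCC was present in H2-K1, H2-D1 and H2-Q7, and in 0.353% of 32851 windows of the same length. The H2-Q10 stretch did not hold these letters. TTTCACTTC was present in all 4 and in 0.505% of windows.

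Tap1 and Psmb9 are transcribed away from each other, and the bases between their starts are shown because both genes share them. They lie at chr17:34187331-34187555, here on the plus strand, and capitals mark CCAATCAG, a CCAAT-type motif.
Tap1 and Psmb9: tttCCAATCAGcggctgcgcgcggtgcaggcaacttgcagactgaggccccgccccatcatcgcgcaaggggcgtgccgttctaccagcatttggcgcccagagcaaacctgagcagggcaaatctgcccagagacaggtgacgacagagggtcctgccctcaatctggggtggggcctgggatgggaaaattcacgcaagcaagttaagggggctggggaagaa
CCAATCAG was searched on both strands and was in the windows of 6 of the 9 genes (H2-K1, H2-D1, H2-Q7, H2-T23, Tap1 and Psmb9) and in 4.1% of all windows. The B2m and Psmb8 windows held none of the 3 motifs. A match is a description of the letters and was not tested as a site.

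Of the 29 probe sets, 24 passed the filter on dim signals, which asked for a value above the array's own 40th percentile (5.52 to 5.72 on the log2 scale) on at least 4 arrays. The 5 that did not pass were 3 Tap1 probe sets, the H2-D1 probe set 1451934_at and a probe set shared by Gm38417, H2-Q2 and H2-D1. Their strain means lay between 4.26 and 5.29, and none exceeded the percentile on any array. Among the 24, 22 differed among the 6 strains (limma's moderated F test, Benjamini-Hochberg adjusted p under 0.05), against 36.4% of all 15775 probe sets tested. A difference with a range of strain means of at least 2-fold was called for 17 of the 24, against 9.09% of all, and one of at least 4-fold for 10, against 1.2%. The median range was 3.24-fold over the 24 and 1.41-fold over all probe sets tested. Without the filter the same 22 were called, and the 5 dim ones were not. Some of the 24 probe sets passed the filter only through the arrays of 1 strain, such as H2-D1 1450170_x_at (AKR) and 1425614_x_at (BALB/c), and had to differ. The counts therefore describe the set and support nothing further. The 2 tested probe sets that were not called are both shared, one by H2-K1 and H2-D1 (1424948_x_at, adjusted p = 0.111) and one by H2-T-ps and H2-T23 (1419658_at, adjusted p = 0.572). Over the 15 pairs of strains, 174 of 360 pair tests of these 24 probe sets were called, against 11.4% over all.

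**Figure D1:**
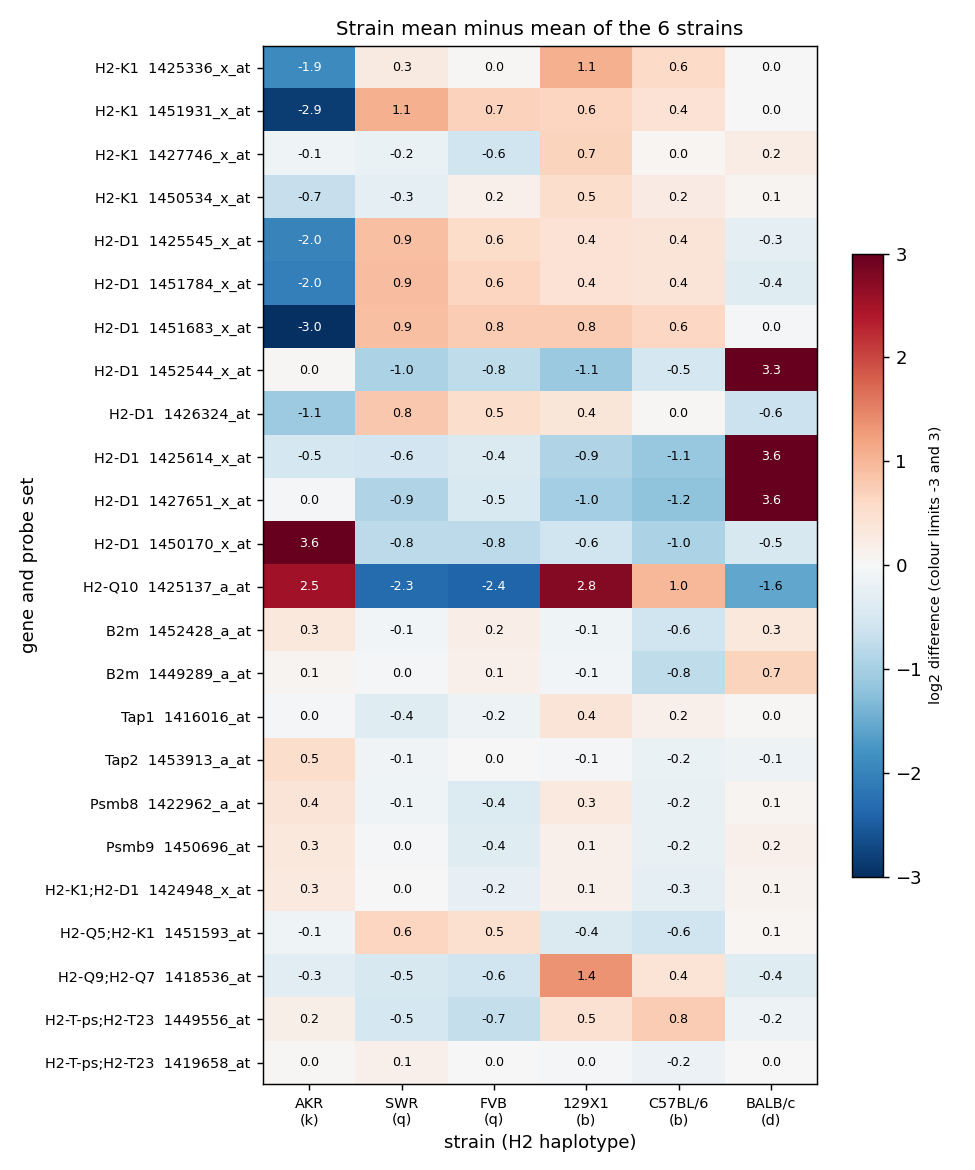
Strain mean minus the mean of the 6 strains, in log2 units, for the 24 tested probe sets (rows, with gene and probe set) and the 6 strains (columns, with haplotype); each cell prints its value and the colours stop at -3 and 3. Within H2-D1 the rows differ in sign: 4 are lowest in AKR, 1 is highest in AKR (3.6) and 3 are highest in BALB/c (3.3 to 3.6).

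H2-K1, a classical heavy chain gene, was lowest in AKR at its brightest probe set, 1425336_x_at, and differed 7.83-fold between the highest strain, 129X1, and AKR (adjusted p = 1.01e-11). The 4 arrays read 8.63, 8.71, 9.03 and 8.69 in AKR, 11.21, 11.02, 10.77 and 10.76 in SWR, 10.95, 10.69, 10.34 and 10.86 in FVB, 11.76, 11.52, 12.09 and 11.57 in 129X1, 10.98, 11.42, 11.21 and 11.36 in C57BL/6, and 10.5, 10.81, 10.56 and 10.78 in BALB/c. Every AKR array was below every array of the other 5 strains, and every 129X1 array was above every C57BL/6 array, while C57BL/6, SWR, FVB and BALB/c overlapped with their neighbours in the order. The means were 8.77 ± 0.18 in AKR, 10.67 ± 0.15 in BALB/c and 11.74 ± 0.26 in 129X1. Next to AKR in the order came BALB/c, 3.73-fold higher (adjusted p = 5.4e-09). C57BL/6 and SWR (adjusted p = 0.27), SWR and FVB (0.404) and FVB and BALB/c (0.90) did not differ beyond their spread.

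A second H2-K1 probe set, 1451931_x_at, was also lowest in AKR but highest in SWR. Its 4 arrays read 6.37, 6.19, 6.36 and 6.39 in AKR, 10.52, 10.14, 10.43 and 9.89 in SWR, 10.03, 10.18, 9.41 and 9.89 in FVB, 9.93, 9.89, 9.94 and 9.54 in 129X1, 9.73, 9.34, 9.69 and 9.76 in C57BL/6, and 9.11, 9.25, 9.23 and 9.22 in BALB/c. AKR stood apart with no overlap, 7.32-fold below BALB/c, its nearest neighbour (adjusted p = 2.5e-12), and BALB/c did not overlap C57BL/6 (adjusted p = 0.062). The range over the strains was 15.1-fold (adjusted p = 1.11e-14).

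The other H2-K1 probe sets had smaller ranges. Probe set 1450534_x_at ranged 2.33-fold (adjusted p = 4.63e-07), from 6.72 ± 0.12 in AKR to 7.94 ± 0.16 in 129X1, and AKR did not overlap SWR, the next strain at 7.12 ± 0.18. Probe set 1427746_x_at had another order, with FVB lowest and AKR in the middle. It read 8.38, 8.11, 8.42 and 8.69 in AKR, 8.73, 8.42, 8.31 and 7.92 in SWR, 7.94, 8.02, 7.8 and 7.97 in FVB, 9.37, 8.81, 9.76 and 8.82 in 129X1, 8.84, 8.33, 8.53 and 8.64 in C57BL/6, and 8.71, 8.69, 8.99 and 8.63 in BALB/c. All neighbours in that order overlapped, although the strains together differed (2.39-fold, adjusted p = 0.000365). All 4 probe sets have the suffix _x_at, Affymetrix's mark for probes that can also match other sequences. The probe sequences were not used here, so at H2-K1 and H2-D1 an amount of transcript and a match between probe and allele cannot be told apart. The same limit holds for H2-Q10 and for the shared probe sets of the heavy chain genes.

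**Figure D2:**
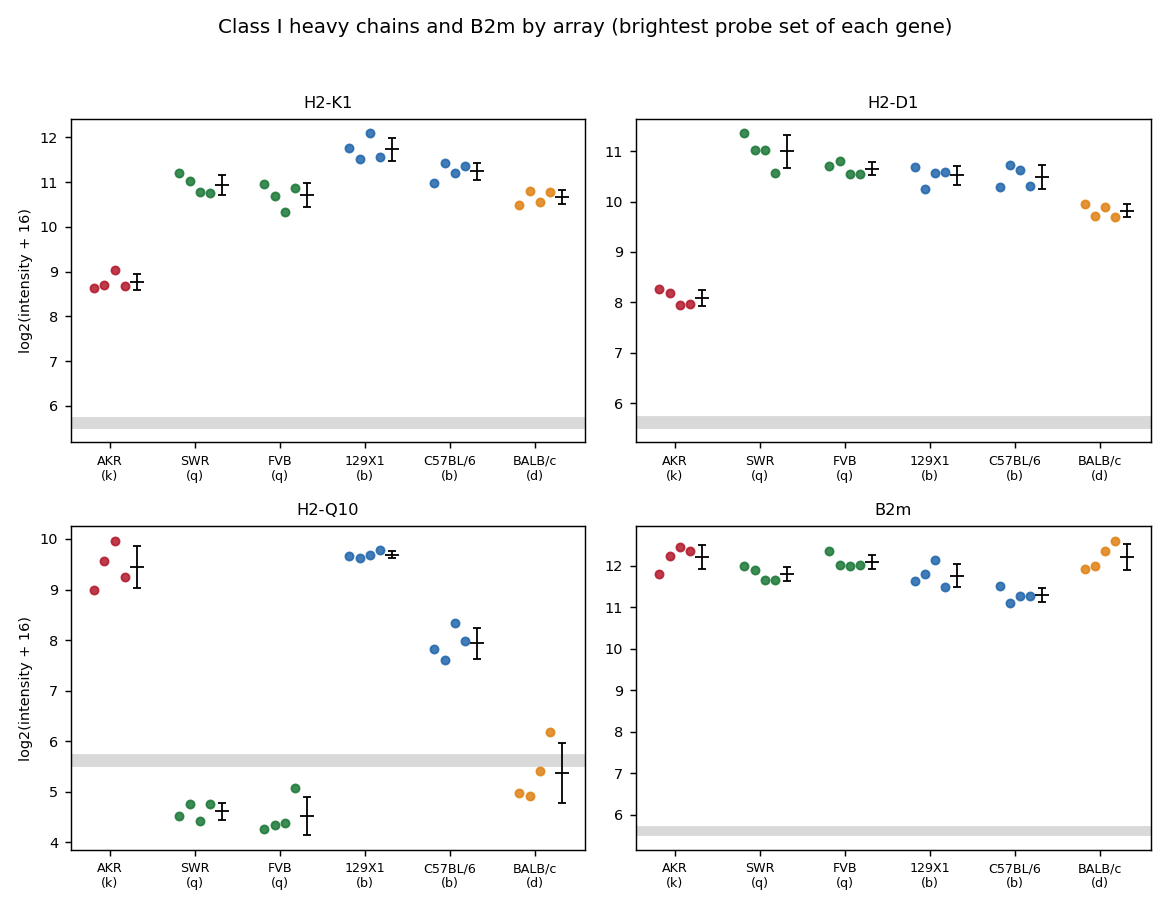
Values by array for the brightest probe set of H2-K1, H2-D1, H2-Q10 and B2m, as log2(intensity + 16); points are single arrays coloured by haplotype, bars are the strain mean ± SD (n = 4), and the grey band spans the arrays' 40th percentiles (5.52 to 5.72). AKR lies lowest for H2-K1 and H2-D1 and among the highest for H2-Q10 and B2m, and the y axes differ between panels and do not start at 0.

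H2-D1, the other classical heavy chain gene, did not have a single strain order: its 8 tested probe sets fell into those lowest in AKR, one highest in AKR and those highest in BALB/c. At the brightest, 1425545_x_at, the arrays read 8.27, 8.18, 7.94 and 7.97 in AKR, 11.35, 11.02, 11.03 and 10.57 in SWR, 10.71, 10.81, 10.55 and 10.54 in FVB, 10.69, 10.25, 10.56 and 10.58 in 129X1, 10.28, 10.73, 10.62 and 10.30 in C57BL/6, and 9.95, 9.72, 9.90 and 9.69 in BALB/c. AKR was below all other arrays and BALB/c was between AKR and the rest, with no overlap on either side. AKR was 3.30-fold below BALB/c (adjusted p = 1.3e-08) and BALB/c 1.59-fold below C57BL/6 (adjusted p = 0.0031), while SWR, FVB, 129X1 and C57BL/6 overlapped as neighbours. The range was 7.47-fold (adjusted p = 2.25e-12).

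Of the other 3 probe sets that were lowest in AKR, 1451784_x_at ranged 7.83-fold, from 7.94 ± 0.38 in AKR to 10.91 ± 0.30 in SWR, with BALB/c second lowest at 9.63 ± 0.14. Probe set 1451683_x_at was at or below 4.56 on all 4 AKR arrays, under the 40th percentile, and was 7.36 ± 0.35 in BALB/c and 8.02 to 8.30 in the means of the other 4 strains (15.2-fold range, adjusted p = 2.27e-12). Probe set 1426324_at, the only tested H2-D1 probe set with a single symbol and without the _x_at suffix, ran from 5.13 ± 0.66 in AKR to 7.04 ± 0.17 in SWR (3.75-fold, adjusted p = 1.54e-06). There AKR and BALB/c (5.59 ± 0.22) overlapped, and 1 of 4 arrays of each strain was above the 40th percentile.

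The probe set 1450170_x_at had the opposite order. It read 9.28, 9.52, 9.26 and 9.14 on the AKR arrays, and at most 5.32 in SWR, 5.16 in FVB, 5.49 in 129X1, 4.95 in C57BL/6 and 5.47 in BALB/c. It was above the 40th percentile on all 4 AKR arrays and on none of the other 20, so it passed the filter through AKR alone. AKR was 17.0-fold higher than BALB/c, the next strain (adjusted p = 1.4e-13, which for that reason gives no support). The strain lowest at 4 H2-D1 probe sets was therefore highest at another one annotated to the same gene.

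The remaining 3 probe sets were highest in BALB/c. Probe set 1425614_x_at read 9.38, 9.65, 9.79 and 9.66 in BALB/c against strain means of 4.89 to 5.60 elsewhere, 16.2-fold above FVB, the next strain (adjusted p = 6.5e-14). It was above the 40th percentile on 4 BALB/c arrays and on 1 array each of AKR, SWR and FVB. It thus passed the filter only through BALB/c, so that p-value gives no support. Probe set 1427651_x_at read 9.5, 9.36, 9.65 and 9.66 in BALB/c against means of 4.73 to 5.89, 12.6-fold above AKR (adjusted p = 2.5e-12). Probe set 1452544_x_at read 9.74, 9.73, 9.74 and 9.91 in BALB/c, and was 9.74-fold above AKR (adjusted p = 1.4e-13), where it read 6.47, 6.46, 6.52 and 6.54. No array of another strain reached a BALB/c array at any of the 3. At 1452544_x_at AKR was in turn 1.47-fold above C57BL/6 (adjusted p = 0.018), without overlap. Averaged over its 8 tested probe sets on each array, H2-D1 ran from 6.59 ± 0.05 in AKR to 8.32 ± 0.04 in BALB/c, a log2 range of 1.73 against 2.90 at the brightest probe set, and the highest strain was then BALB/c in place of SWR.

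**Figure D3:**
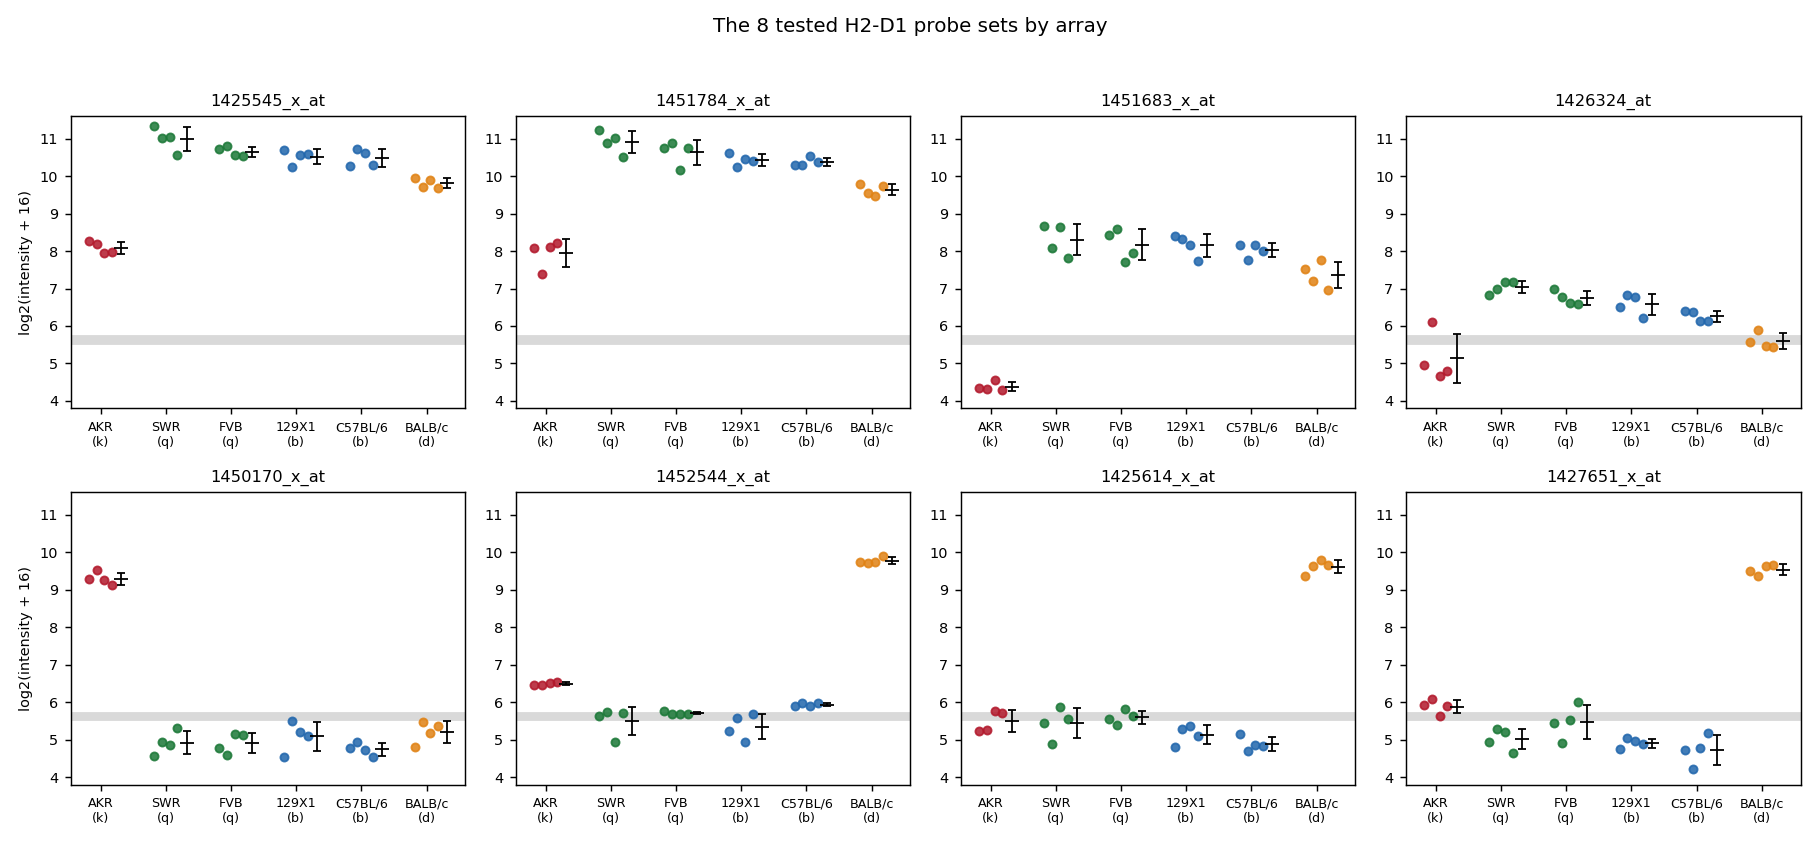
The 8 tested H2-D1 probe sets by array, as log2(intensity + 16) on a common y axis that does not start at 0; points are single arrays coloured by haplotype, bars the strain mean ± SD (n = 4), the grey band the 40th percentiles (5.52 to 5.72). The upper row is lowest in AKR, and in the lower row 1450170_x_at is highest in AKR (9.30) and the other 3 are highest in BALB/c (9.54 to 9.78).

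H2-Q10, the secreted heavy chain, was 36.0-fold higher in 129X1 than in FVB (probe set 1425137_a_at, adjusted p = 3.45e-15 over the strains). FVB was under the 40th percentile on every array, so the size of that fold rests on the pseudocount: the log2 range was 5.17 with 16 added, 6.29 with 4 and 3.62 with 64. It read 9.0, 9.56, 9.96 and 9.25 in AKR, 4.52, 4.76, 4.43 and 4.75 in SWR, 4.26, 4.35, 4.39 and 5.08 in FVB, 9.67, 9.63, 9.69 and 9.78 in 129X1, 7.82, 7.60, 8.33 and 7.99 in C57BL/6, and 4.97, 4.91, 5.41 and 6.19 in BALB/c. AKR and 129X1 were high and overlapped, C57BL/6 was between, and SWR and FVB did not pass the 40th percentile on any array, as 1 of 4 BALB/c arrays did. AKR was 2.85-fold above C57BL/6 (adjusted p = 0.00013) and C57BL/6 5.91-fold above BALB/c (adjusted p = 5e-08). AKR, lowest at the brightest H2-K1 probe set, was next to the top at H2-Q10. H2-Q10 is best known from liver. Of 11 hepatocyte markers on the array 5 passed the filter and 1, Cyp2e1, differed among the strains (36.4% of all probe sets did), highest in FVB (8.12) and BALB/c (7.88). The other 4 were Alb (adjusted p = 0.743), Apoa2 (0.227), Apoh (0.0758) and Tat (0.159). The fibrinogen genes Fga, Fgb and Fgg and the fetuin gene Ahsg were under the 40th percentile on every array. The summed hepatocyte marker intensity had medians of 245 in SWR, 252 in C57BL/6, 271 in AKR, 277 in 129X1, 510.2 in BALB/c and 513 in FVB. Over the FVB arrays the sum ran from 244.4 to 781.8. A relation of these markers to H2-Q10 was not tested.

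The shared probe set of H2-Q9 and H2-Q7 (1418536_at) was highest in both b strains. It read 7.88, 7.47, 7.62 and 7.24 in 129X1, 6.48, 6.72, 6.78 and 6.48 in C57BL/6, and strain means of 5.60 to 5.86 in the other 4. The b strains did not overlap each other or the rest, with 129X1 1.92-fold above C57BL/6 (adjusted p = 0.000649) and C57BL/6 1.69-fold above AKR (adjusted p = 0.0051). The brighter shared probe set of H2-T-ps and H2-T23 (1449556_at) was also highest in the b strains, at 8.81 ± 0.09 in C57BL/6 and 8.50 ± 0.26 in 129X1, and lowest in FVB at 7.32 ± 0.25 (2.80-fold, adjusted p = 9.51e-06). All its neighbours in the order overlapped. The shared probe set of H2-Q5 and H2-K1 (1451593_at) had the reverse pattern, highest in SWR (7.53 ± 0.12) and FVB (7.36 ± 0.07) and lowest in C57BL/6 (6.30 ± 0.09), a 2.35-fold range (adjusted p = 3.05e-05).

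B2m, whose product pairs with every class I heavy chain, varied less and was lowest in C57BL/6. Its brightest probe set, 1452428_a_at, read 11.79, 12.22, 12.45 and 12.35 in AKR, 12.00, 11.89, 11.66 and 11.64 in SWR, 12.34, 12.02, 11.99 and 12.01 in FVB, 11.63, 11.79, 12.14 and 11.48 in 129X1, 11.51, 11.11, 11.27 and 11.26 in C57BL/6, and 11.91, 11.98, 12.34 and 12.59 in BALB/c. Every neighbouring pair of strains overlapped, and C57BL/6 was low, with 1 array of 129X1 inside its range. The range was 1.89-fold (adjusted p = 0.000844). The second probe set, 1449289_a_at, read 10.71, 10.44, 10.59 and 10.75 in C57BL/6, below every other array, and 12.03, 12.09, 12.22 and 11.96 in BALB/c, above every other array. Between them AKR, SWR, FVB and 129X1 had means of 11.31 to 11.55 and overlapped. At that probe set BALB/c was 1.44-fold above FVB (adjusted p = 0.032) and 129X1 1.61-fold above C57BL/6 (adjusted p = 0.00515). AKR, lowest at the brightest H2-K1 and H2-D1 probe sets, had a B2m mean of 12.20 ± 0.29 at the brightest probe set, level with BALB/c at 12.21 ± 0.32 (adjusted p = 0.99).

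The immunoproteasome genes Psmb8 and Psmb9 differed among the strains by less than 2-fold and had the same strain at each end. Psmb8 (1422962_a_at) read 7.39, 7.54, 7.29 and 7.25 in AKR, 7.01, 6.81, 6.73 and 6.88 in SWR, 6.05, 6.66, 6.79 and 6.77 in FVB, 7.34, 7.29, 7.47 and 6.96 in 129X1, 6.86, 6.58, 6.80 and 6.74 in C57BL/6, and 7.15, 7.05, 7.06 and 6.97 in BALB/c. AKR and 129X1 were highest and FVB lowest (1.75-fold, adjusted p = 0.000433), and each neighbour in the order overlapped the next. Psmb9 (1450696_at) read 7.13, 7.05, 6.59 and 6.88 in AKR, 6.60, 6.5, 6.76 and 6.30 in SWR, 6.09, 6.38, 6.17 and 6.23 in FVB, 6.72, 6.79, 6.95 and 6.46 in 129X1, 6.57, 6.04, 6.36 and 6.52 in C57BL/6, and 6.78, 6.96, 6.69 and 6.54 in BALB/c. AKR was highest and FVB lowest (1.62-fold, adjusted p = 0.00414), again with overlap at each step.

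The transporter genes had different extremes. Tap1 (1416016_at) read 6.66, 6.24, 6.59 and 6.37 in AKR, 6.30, 5.77, 6.28 and 6.17 in SWR, 6.51, 5.95, 6.40 and 6.46 in FVB, 7.02, 6.76, 7.04 and 6.66 in 129X1, 6.72, 6.57, 6.70 and 6.58 in C57BL/6, and 6.51, 6.47, 6.32 and 6.76 in BALB/c. It was highest in 129X1 and lowest in SWR, which did not overlap each other (1.67-fold, adjusted p = 0.00484 over the strains). Tap2 (1453913_a_at) read 6.92, 7.08, 7.01 and 7.20 in AKR, and had means of 6.33 to 6.53 in the other 5 strains. Every AKR array was above every other array, and AKR was 1.44-fold above FVB, the next strain (adjusted p = 0.015), while the other 5 strains overlapped. Tap1 and Psmb9 share the sequence between their starts. The highest mean was in 129X1 for Tap1 and in AKR for Psmb9. Neighbouring strains overlapped at each step of both orders, so a difference between the orders was not shown.

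**Figure D4:**
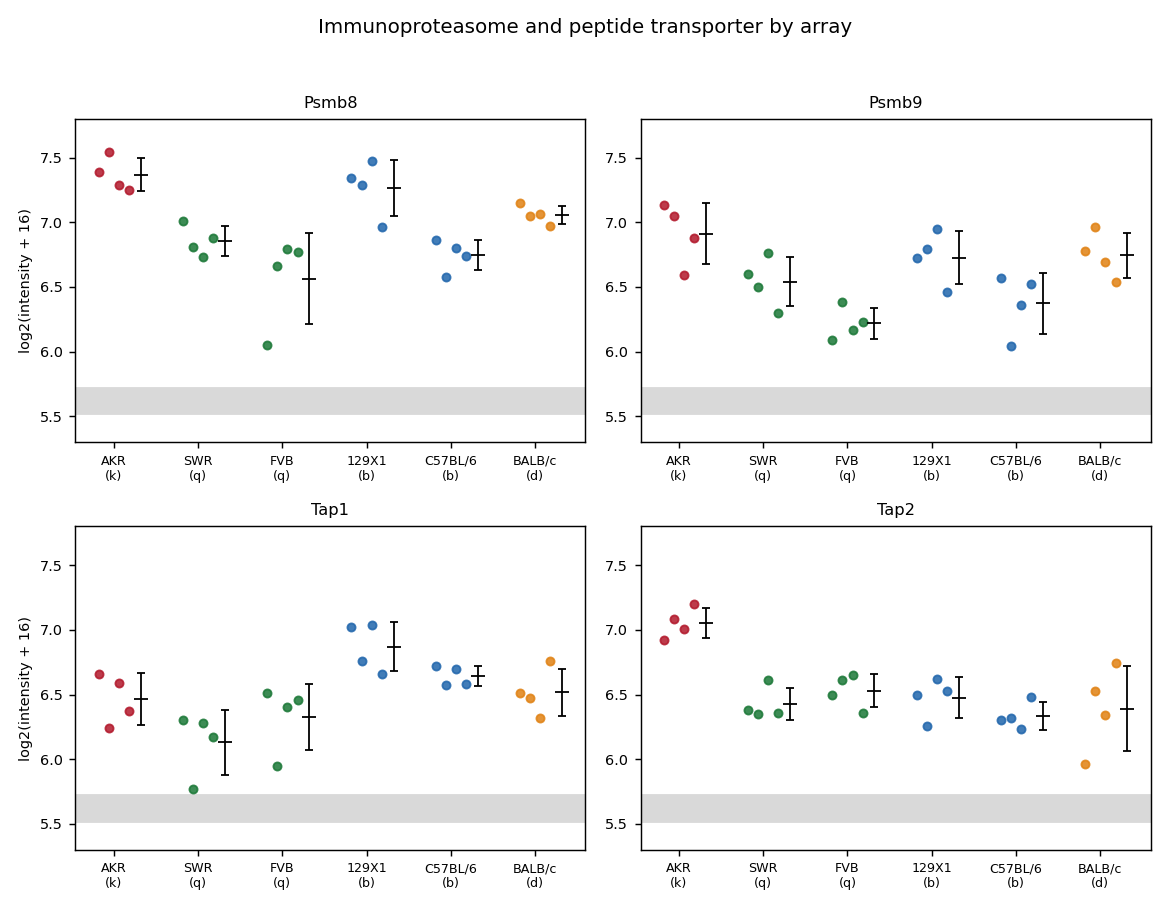
Values by array for Psmb8, Psmb9, Tap1 and Tap2, as log2(intensity + 16) on a common y axis that does not start at 0; points are single arrays coloured by haplotype, bars the strain mean ± SD (n = 4), the grey band the 40th percentiles (5.52 to 5.72). AKR stands clear of the other strains for Tap2, and for the other 3 genes neighbouring strains overlap.

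Set by haplotype, 22 of the 24 probe sets differed among k, q, b and d (moderated F test against the spread between arrays), against 29.7% of all tested. The haplotype means took up a median of 95.75% of the variance between strain means over the 24, and 66% over all tested. Haplotypes k and d hold 1 strain each, so a difference of AKR or BALB/c alone counts wholly as haplotype in that share. It was 99.62% at H2-D1 1450170_x_at, which was high in AKR alone. The share therefore does not separate haplotype from strain. With strain as a random block, at a correlation within strains of 0.195 shared by all probe sets, 17 of the 24 were called, against 858 of all 15775 tested. The 5 calls that were lost were Tap1 (adjusted p = 0.124), Psmb8 (0.157), Psmb9 (0.262), H2-K1 1427746_x_at (0.0979) and B2m 1452428_a_at (0.0977). That fit does not use each probe set's own spread between strains, so its p-values do not measure that spread. Each haplotype was then set against the mean of the other 3. For k, 10 of 24 were lower (4.84% of all tested): 3 of H2-K1, with 1451931_x_at 10.1-fold lower (adjusted p = 1.12e-15), and 7 of H2-D1. Of these 7, the 3 that are high in BALB/c were lower in k through the d mean. For k, 5 were higher (4.82% of all): H2-D1 1450170_x_at, which passed the filter only through AKR, H2-Q10, Tap2, Psmb8 and Psmb9. The Psmb9 call for k (adjusted p = 0.0476) was lost in 22 of the 33 alternatives, with adjusted p = 0.194 without AKR replicate 1 and 0.13 without AKR replicate 2.

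For haplotype q, 7 of 24 were higher (5.97% of all tested), namely 2 of H2-K1, 4 of H2-D1 and the shared H2-Q5 and H2-K1 probe set, and 11 were lower (5.17%), among them H2-Q10 (9.91-fold, adjusted p = 1.05e-13), Tap1, Psmb8 and Psmb9. The 11 also held 4 H2-D1 probe sets that were high in BALB/c or AKR alone (1452544_x_at, 1425614_x_at, 1427651_x_at and 1450170_x_at) and were lower in q through the d or k mean. Of the 7, the brightest H2-K1 probe set was higher in q through the low k mean, with AKR at 8.77. There SWR (10.94) and FVB (10.71) lay below 129X1 (11.74) and C57BL/6 (11.24), and FVB was level with BALB/c (10.67). For haplotype b, 12 were higher (7.65%), including all 4 of H2-K1, H2-Q10 (5.11-fold, adjusted p = 9.13e-11) and Tap1, and 7 were lower (6.69%), including both of B2m and the same 4 H2-D1 probe sets, again through the d or k mean. At H2-Q10 b was higher through the low q and d means, since AKR (9.44) lay above C57BL/6 (7.93). At H2-K1 1427746_x_at C57BL/6 (8.58) lay below BALB/c (8.75). The 12 also held the H2-D1 probe sets lowest in AKR, where the b strains' means lay no higher than those of SWR and FVB. For haplotype d, 5 were higher (7.94%), 3 of them H2-D1 probe sets with 14.6-fold to 19.4-fold differences. Among them 1425614_x_at passed the filter only through BALB/c, so its call gives no support. Lower in d were 3 (10.3%), H2-Q10 (4.71-fold, adjusted p = 9.21e-09), H2-D1 1450170_x_at and H2-D1 1426324_at, the last not without BALB/c replicate 1, 3 or 4 (adjusted p = 0.0642, 0.075 and 0.0897). Of these 3, 1450170_x_at was lower in d through the k mean, since BALB/c at 5.21 ± 0.29 was the highest of the other 5 strains. BALB/c was not the lowest strain at H2-Q10 (5.37, with SWR at 4.61 and FVB at 4.52). Nor was it at 1426324_at (5.59, with AKR at 5.13 and overlapping arrays). H2-K1 1451931_x_at was higher in d through the low k mean, since BALB/c (9.20) lay above AKR (6.33) alone. At that probe set the b strains, 129X1 (9.82) and C57BL/6 (9.63), lay below SWR (10.25) and FVB (9.88). For d, the share that was lower was close to that of all probe sets.

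Strains of the same haplotype letter were then compared with each other. Among the 24, 8 differed within the shared haplotypes (moderated F test), against 16.9% of all tested. Between SWR and FVB, both q, none was higher in SWR (3.72% of all tested) and 1 was lower (3.15%), H2-K1 1450534_x_at at 7.12 ± 0.18 against 7.57 ± 0.19 (adjusted p = 0.0254). These comparisons were made in limma, and that call was lost without SWR replicate 2 or without FVB replicate 1, 3 or 4. Of the other q differences the largest in size were H2-D1 1427651_x_at, at -0.45 with a 95% interval of -0.86 to -0.05, and H2-K1 1427746_x_at, at 0.41 (0.02 to 0.80).

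Between 129X1 and C57BL/6, both b, 6 of 24 were higher in 129X1 (6.03% of all tested) and 1 was lower (5.46%). H2-Q10 was 3.38-fold higher in 129X1 (log2 difference 1.76, SE 0.24, adjusted p = 1.52e-05), and no array of the strains overlapped. The others that were higher were the shared H2-Q9 and H2-Q7 probe set (1.92-fold), B2m 1449289_a_at (1.61-fold), H2-K1 1427746_x_at (1.52-fold, adjusted p = 0.0366), Psmb8 (1.43-fold, adjusted p = 0.0155) and H2-K1 1425336_x_at (1.41-fold, adjusted p = 0.0384). H2-D1 1452544_x_at was 1.5-fold lower (adjusted p = 0.0117), with means of 5.35 ± 0.34 and 5.94 ± 0.05, near the 40th percentile. Without 129X1 replicate 3 the calls of both H2-K1 probe sets (adjusted p = 0.15 and 0.16), Psmb8 (0.0604) and 1452544_x_at (0.0598) were lost, which left 3. The call of H2-K1 1425336_x_at was also lost without 129X1 replicate 1 or C57BL/6 replicate 1 or 3, that of 1427746_x_at without 129X1 replicate 1 or C57BL/6 replicate 2, 3 or 4, and that of Psmb8 without C57BL/6 replicate 2. With the interferon score described below as a covariate 2 were left. H2-Q10 and the shared H2-Q9 and H2-Q7 probe set were called in each of the alternatives tried. B2m 1452428_a_at was not called (log2 difference 0.47, 95% interval 0.12 to 0.82, adjusted p = 0.0746), but was under quantile normalization (0.00643).

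**Figure D5:**
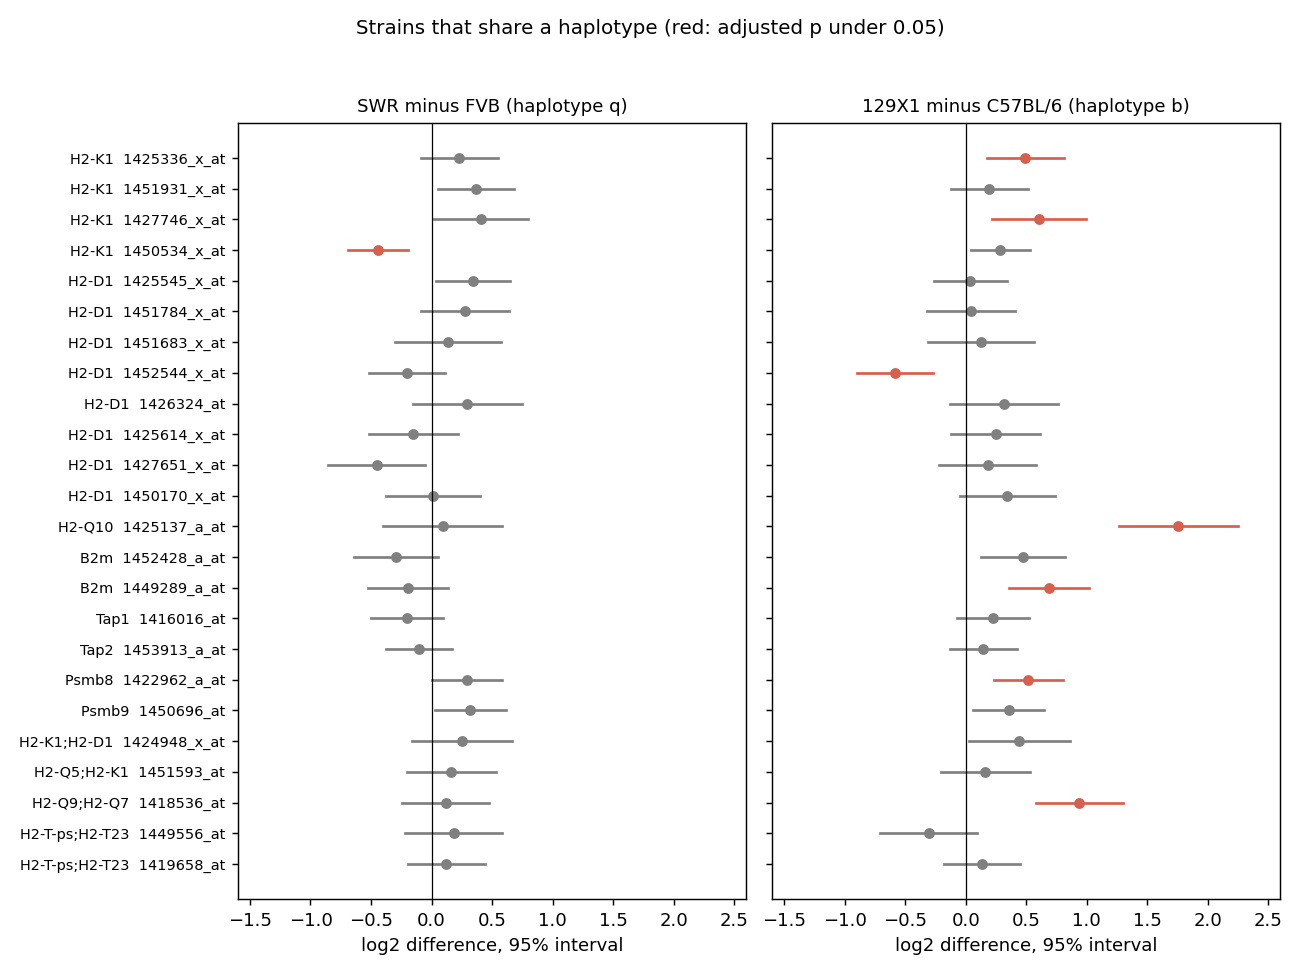
Log2 differences with 95% intervals for the 24 tested probe sets between the q strains (SWR minus FVB, left) and the b strains (129X1 minus C57BL/6, right); red marks an adjusted p under 0.05 in limma. On the left 1 probe set is called, and on the right 7 are, with H2-Q10 farthest from 0 at 1.76.

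Other genes of the pathway were taken from lists, each gene at its brightest probe set. Of 12 other antigen processing genes tested, 7 differed among the strains (36.4% of all), with Psme1, a subunit of the PA28 proteasome activator, highest in 129X1 (8.79, and 7.90 in SWR, 1.84-fold, adjusted p = 0.000274), and Calr and Canx, chaperones of heavy chain folding, highest in BALB/c (12.21 and 10.61) and lowest in 129X1 (11.34 and 9.83). Pdia3, a disulfide isomerase of the peptide-loading complex, was lowest in FVB (9.96) and highest in BALB/c (10.71). Tapbp, which encodes tapasin, the bridge between the transporter and the heavy chain, was not called (adjusted p = 0.0718). Psmb10, which encodes the remaining catalytic subunit of the immunoproteasome, was highest in 129X1 (7.5) and lowest in FVB (6.79, 1.63-fold, adjusted p = 0.0143). Of 14 constitutive proteasome subunits 5 differed, close to the 36.4% of all probe sets, all 5 of them highest in BALB/c: Psmb2, Psmb1, Psma6, Psmb3 and Psma5, by 1.38-fold to 1.59-fold. Of 7 other class I and class I-like heavy chains tested 1 differed (36.4% of all), H2-M3, at 6.18 in FVB and 6.76 in BALB/c (adjusted p = 0.0271). Of 50 other genes of the MHC region 25 differed, beside 36.4% of all probe sets, with a median range of 1.41-fold, led by Hspa1b (11.13 ± 0.89 in AKR, 7.74 ± 0.31 in C57BL/6, adjusted p = 2.58e-06), Hspa1a and Vars. Arrays of a strain spread widely at both heat shock genes, with an SD of 1.25 in AKR for Hspa1a and 0.98 in BALB/c for Hspa1b.

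Interferon response genes were listed because interferons act on this pathway. Of 20 tested, 12 differed (36.4% of all), 7 of them highest in 129X1 and 3 in AKR, and the largest ranges were those of Irf7 (8.05 in 129X1, 6.14 in SWR, 3.76-fold), Rsad2 (3.29-fold), Rtp4 (2.96-fold) and Ifit1 (2.54-fold). The mean score of the list (log2, centred on all arrays) was 0.31 ± 0.34 in 129X1, 0.22 ± 0.12 in AKR, 0.04 ± 0.10 in C57BL/6, below 0 by less than its spread in BALB/c, -0.22 ± 0.03 in FVB and -0.34 ± 0.12 in SWR. Within 129X1 the arrays read 0.59, 0.23, 0.56 and -0.14. The array at -0.14 had the lowest of the 4 values for Tap1, Psmb8 and Psmb9 and for the shared H2-Q9 and H2-Q7 probe set. Among the other genes' brightest probe sets, B2m was also lowest in that array, but H2-Q10 was highest there (9.78). H2-K1 and H2-D1 were lowest in another array. The score was highest in 129X1 and AKR, where Psmb8 was highest, and lowest in both q strains, where Tap1 was lowest. The orders did not match throughout: SWR had the lowest score but a Psmb8 mean of 6.86, against 6.75 in C57BL/6, with overlapping arrays. With the score as a covariate, an alternative added after the data were seen, Tap1 was no longer called among the strains (adjusted p = 0.224), while the other 21 probe sets still were, and among the haplotypes Psmb8 (0.0899) and Psmb9 (0.0808) were lost as well. The lower values of Tap1, Psmb8 and Psmb9 in haplotype q were not called with that covariate (adjusted p = 0.751, 0.439 and 0.734). The score is itself a feature of the strains, and its part in the results was not tested.

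Other cell types in the tissue can hold class I transcripts. In whole tissue, fewer cells of a type and less RNA per cell cannot be told apart. Of 26 leukocyte markers on the array 16 passed the filter and 5 differed among the strains (Coro1a, Ms4a1, Lyz2, Ptprc and Csf1r), not above the 36.4% of all probe sets. The T cell markers Cd3d, Cd3g, Cd4, Cd8a, Cd8b1 and Cd2 did not pass, and Cd3e passed on 4 arrays and was not called (adjusted p = 0.598). The summed intensity of the 26 spanned 1096 to 1497 in AKR, 1175 to 1336 in SWR, 1200 to 1617 in FVB, 1211 to 1573 in 129X1, 1211 to 1354 in C57BL/6 and 1403 to 1873 in BALB/c. With the leukocyte score as a covariate, 22 of the 24 probe sets were still called among the strains and among the haplotypes. The calls lost with that covariate were H2-K1 1425336_x_at (adjusted p = 0.112) and 1427746_x_at (0.0585) between 129X1 and C57BL/6, the former also within the shared haplotypes (0.0835), Tap1 for q (0.0592), Psmb9 for k (0.0537) and H2-D1 1426324_at for d (0.108). Calls gained were Tap2 for b (0.0374) and d (0.047) and H2-D1 1451683_x_at for d (0.00857). Of 10 endothelial markers tested 5 differed (36.4% of all), and the 12 on the array had summed medians of 508 in C57BL/6 to 627 in BALB/c. Of 8 prostate epithelium markers tested 7 differed (36.4% of all), including probasin (Pbsn). The summed median of the 9 on the array was 27110 in BALB/c against 15550 to 19520 in the other strains, and bright genes weigh most in such sums. BALB/c was also the strain with the highest B2m 1449289_a_at and the 3 high H2-D1 probe sets, and the part of the epithelial markers in these results was not tested.

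The genes most like each member over the 24 arrays are given as a description of arrays that share strains, with Pearson's r and no test. For H2-Q10 these were Ctsh (0.913), Stx3 (0.894) and Sdc4 (0.889). For H2-K1 they were Chmp3 (0.893), Dnajb2 (0.887) and Mtif2 (0.877), and for H2-D1 Mtif2 (0.884), Vps41 (0.878) and Dnajb2 (0.876). For B2m they were Cnot8 (0.825), Ctsb (0.813) and Trim25 (0.808). Tap1 was nearest to the interferon-induced gene Rsad2 (0.842), the class II gene H2-Eb1 (0.834) and Uri1 (0.764). For Tap2 they were Grb2 (0.888), Slc7a4 (0.828) and Slc25a29 (0.821), for Psmb8 Tk1 (0.83), Sdc4 (0.803) and D17H6S56E-5 (0.784), and for Psmb9 Slc39a8 (0.743), Sptlc2 (0.739) and Prpf39 (0.712). Of these, H2-Eb1 and D17H6S56E-5 lie on chromosome 17 with the class I genes.

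As a check of the data, each of the 24 arrays had its closest match in its own strain, no columns were identical, and the arrays' trimmed means ranged from 91.4 to 105 before rescaling.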

How the data were processed

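The authors deposited intensities on a linear scale, 1 for each probe set on each array, and the submitters' processing notes name MAS5 without version or settings. The authors' deposited columns shared a mean of 143. Arrays were brought to a common trimmed mean of 98.7 (2% trimmed at each end), 16 was added and log2 taken. Of 22626 probe sets without controls, 15775 were tested, those above the 40th percentile of the array on 4 or more arrays. Gene symbols came from the platform annotation, and chromosomes and upstream sequences from RefSeq (GRCm38.p6).

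limma 3.58.1 in R 4.3.3 was fitted with 1 coefficient per strain (18 residual and 4.85 prior degrees of freedom), two-sided, with Benjamini-Hochberg adjustment within each comparison over all tested probe sets at 0.05. Every probe set of the named genes was reported. A gene's brightest probe set represents it, up to 4 genes per list were named by range, and the 3 most correlated genes are given. The list examples Tapbp, Psmb10 (named for their roles), and the markers named beyond those 4 were chosen after their values were seen. The members and lists were chosen with earlier results of these data known. The workflow was tested on simulated data.

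Replicate numbers were not treated as pairs: once strain means were removed, same-numbered arrays from 2 strains correlated at 0.0053 on average (60 pairs), and for 3 of 24 arrays the best match in another strain bore its number. Alternatives covered scaling, pseudocount, filter, moderation, covariates, blocks and leaving out each array.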

Additional observations from a re-analysis of the deposited data

Results flagged for a closer look

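Within the 4 arrays of a strain, 1 array stood apart from the other 3 in 15 of the 144 groups formed by 24 probe sets and 6 strains by Dixon's 95% criterion on the gap to the nearest of them. Chance alone gives about 1 in 20 such groups.

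At H2-K1 1451931_x_at the arrays apart were AKR replicate 2 (6.19, the others 6.36 to 6.39), 129X1 replicate 4 (9.54, the others 9.89 to 9.94) and C57BL/6 replicate 2 (9.34, the others 9.69 to 9.76), each of them low. At H2-D1 1451784_x_at AKR replicate 2 was low (7.39, the others 8.07 to 8.21). At H2-D1 1452544_x_at SWR replicate 3 was low (4.94), while FVB replicate 1 (5.76, the others 5.69 to 5.70) and BALB/c replicate 4 (9.91, the others 9.73 to 9.74) were high by small amounts within tight groups.

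H2-Q10 was apart in FVB replicate 4 (5.08, the others 4.26 to 4.39), under the 40th percentile like the rest of that strain. B2m was apart in FVB replicate 1 (12.34, 1452428_a_at) and in 129X1 replicate 4 (11.01, 1449289_a_at, the others 11.39 to 11.43). Tap2 was apart in SWR replicate 3 (6.61, the others 6.35 to 6.38).

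Among shared probe sets, the H2-Q5 and H2-K1 probe set was low in SWR replicate 2 (7.35). The brighter H2-T-ps and H2-T23 probe set was high in FVB replicate 2 (7.70, the others 7.19 to 7.21) and in BALB/c replicate 3 (8.40, the others 7.70 to 7.75). The dimmer one was low in FVB replicate 3 (5.0).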

How the results depend on the processing

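No called difference changed sign under any alternative tried, and 22 of the 24 probe sets were called among the strains and among the haplotypes under each scaling, pseudocount, filter, moderation and left-out array. With replicate number as a block, 22 were called among the strains and 7 within the shared haplotypes, and the H2-K1 1425336_x_at call between 129X1 and C57BL/6 was lost (adjusted p = 0.0593). With the interferon score as a covariate, added after the data were seen, the probe sets of these genes called were 2 between 129X1 and C57BL/6 and 10 for haplotype q, and of all probe sets 811 were called for k, 327 for q and 1426 for b (1523, 1757 and 2262 without it). With strain as a random block, 858 of all probe sets were called among the haplotypes, against 4692. For all of these the cause was not tested.

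With 1 array left out, the called probe sets of these genes numbered 5 to 10 within the shared haplotypes (5 without 129X1 replicate 3), 3 to 7 between 129X1 and C57BL/6 (3 without 129X1 replicate 3) and 0 to 2 between SWR and FVB (0 without SWR replicate 2 or FVB replicate 1, 3 or 4, and 2 without SWR replicate 4 or FVB replicate 2). Over all probe sets, 2211 to 2773 were called within the shared haplotypes and 1386 to 1894 between 129X1 and C57BL/6. Between SWR and FVB 615 to 1163 of all were called (lowest without FVB replicate 3, 654 without SWR replicate 2 and 695 without SWR replicate 1), and 993 to 1656 for k (993 without AKR replicate 4, 1003 without replicate 1 and 1007 without replicate 3). Averaging a gene's probe sets gave log2 ranges of 2.12 for H2-K1, 1.73 for H2-D1 and 1.18 for B2m, against 2.97, 2.90 and 0.92. With pseudocount 4, H2-D1 1452544_x_at and 1427651_x_at were no longer called lower in k (adjusted p = 0.105 and 0.227), nor was the latter without AKR replicate 3 (0.0506). Without rescaling, the BALB/c median over all probe sets was lower by -0.11 on the log2 scale.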
